A study of Homo sapiens with 6 samples.

Results

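The BCL2 family was followed through 10 of its genes, BCL2L1, MCL1, BAX, BAK1, BCL2L11, BID, BIK, BAD, BBC3 and PMAIP1, in CAL-62, an established human cell line from an anaplastic thyroid carcinoma. The genes were chosen by name. All 10 were listed in the deposited transcript table, with 34 of its 31009 transcripts, and they make up 10 of its 11354 genes. They lie apart in the genome, with BAX and BBC3 on chromosome 19, BID and BIK on 22, and MCL1, BCL2L11, BAK1, BAD, PMAIP1 and BCL2L1 on chromosomes 1, 2, 6, 11, 18 and 20. RNA sequencing compared 3 empty-vector cultures (the controls) with 3 in which the forkhead factor FOXK2 was overexpressed. The title of the series concerns resistance to apatinib, an inhibitor of VEGF receptor signalling, but no drug is named for any of the 6 samples, and all 6 were grown in the same serum-containing medium. The promoter driving FOXK2, and whether the cultures came from 1 clone or from a mixed population, are not stated in the labels.

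BCL2 family proteins decide whether the outer mitochondrial membrane is opened and cytochrome c is released to start the caspase cascade. BCL-xL, encoded by BCL2L1, and MCL1 are survival proteins that hold the others in check, BAX and BAK1 are the effectors that form the pores, and the BH3-only proteins BIM (BCL2L11), BID, BIK, BAD, PUMA (BBC3) and NOXA (PMAIP1) either bind the survival proteins or activate the effectors directly. Several of these genes make splice forms that lack a domain and can act in the opposite direction, and much of the control of the family lies in protein turnover, cleavage and phosphorylation, which RNA levels do not show.

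Values are FPKM, fragments scaled to transcript length and to the mapped fragments of the library, summed over the listed transcripts of each gene. Differences are FOXK2 minus vector on the log2(FPKM + 1) scale, a scale that understates the change of genes with low values. A gene or transcript was called when its Benjamini-Hochberg adjusted p from limma, over all features with a mean of at least 1 FPKM, was under 0.05. Of 10302 genes tested, 36.3% were called, 17.6% higher and 18.7% lower in the FOXK2 libraries. FOXK2 mRNA was 16.2, 12.5 and 18.8 FPKM in vector replicates 1 to 3 and 30.8, 36.2 and 30.1 FPKM in the FOXK2 replicates, with no overlap between the groups (difference 1.00 ± 0.17 SE, limma adjusted p = 0.00525). The FOXK2 libraries differed in how near they lay to the vector libraries. Across genes, log2 values correlated with those of the vector libraries at 0.873 to 0.899 for FOXK2 replicate 1. The range was 0.905 to 0.924 for FOXK2 replicate 3 and 0.931 to 0.941 for FOXK2 replicate 2, the nearest. LYZ, a leukocyte gene, was listed at 21.6 FPKM in FOXK2 replicate 2 and at 0.0951 to 0.33 FPKM elsewhere. CD14 was at 0.355 to 1.58 FPKM in the 6 libraries, and PTPRC and CD3E were not listed. Of 8 thyroid follicular markers 3 were listed, PAX8, HHEX and FOXE1, and TG, TSHR, SLC5A5 and NKX2-1 were not, whereas KRT8, KRT18, KRT7 and VIM were abundant. The difference between the groups also followed the GC content of the transcripts: in the lowest of 10 GC bins 35.1% of genes were called higher and 2.72% lower, and in the highest 2.04% were called higher and 44.1% lower. The part of GC content in the results below was not tested as a cause, but each member's GC content and its difference after a GC and length correction are given beside it. In RNA from whole cultures, fewer cells of a kind and less RNA per cell cannot be told apart.

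Of the 9 members that passed the filter, 4 were called, where the share of all genes would give 3.27. MCL1 rose, and BID, BIK and BAD, all BH3-only genes, fell. BCL2L1, BAX, BAK1, BCL2L11 and PMAIP1 did not pass the test, and BBC3 lay under the filter. With 1 library left out, 2 members were called without vector replicate 2, vector replicate 3, FOXK2 replicate 1 or FOXK2 replicate 3, and 6 without FOXK2 replicate 2. The groups' values did not overlap for 5 of the 9 tested members, 1 higher and 4 lower in the FOXK2 libraries, against 25.7% and 26.4% of all tested genes. After the GC and length correction, which left 30.2% of all genes called, 2 members were called, BID and BIK, both lower (lower calls then made up 14.3% of all genes and higher calls 15.9%). The median difference of the 9 members was -0.24 as deposited and 0.06 with the correction, beside medians of 0.01 over all genes in both fits.

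**Figure D1:**
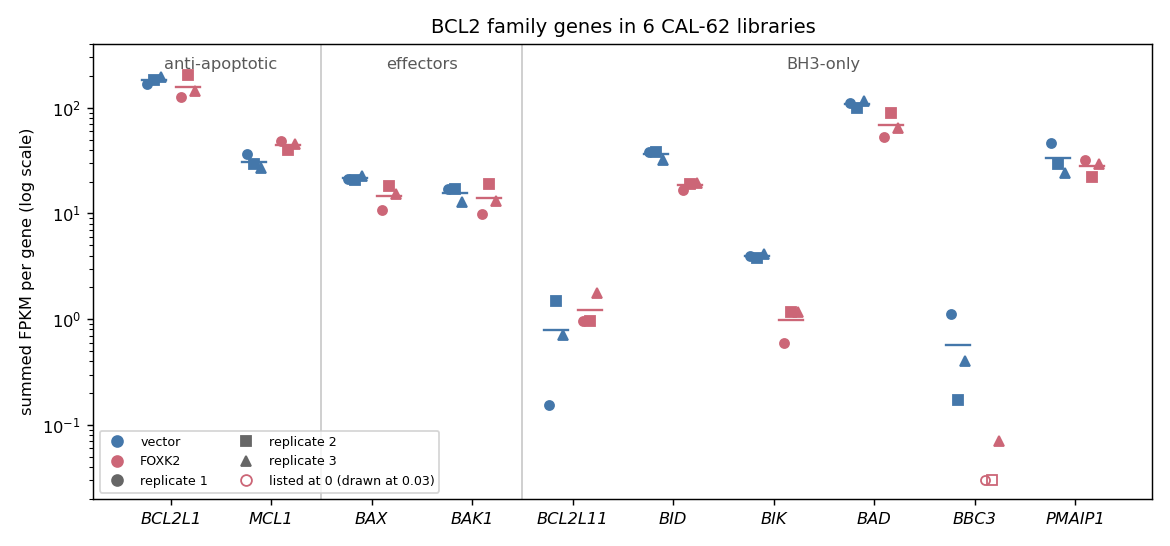
Summed FPKM of each member (log axis) in the 3 vector libraries (blue) and the 3 FOXK2 libraries (red), with replicates as symbols and group means as lines. BID, BIK and BAD lie lower and MCL1 higher in all 3 FOXK2 libraries, while BCL2L1, BAK1, BCL2L11 and PMAIP1 overlap; open symbols are values listed at 0.

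BCL2L1 was the most abundant member per length in every library, followed by BAD. Its summed level was 169, 184 and 196 FPKM in vector replicates 1 to 3 and 127, 203 and 144 FPKM in the FOXK2 replicates. The FOXK2 values lay on both sides of the vector values, with FOXK2 replicate 2 the highest of all 6 libraries. The difference was -0.24 ± 0.18 (SE, n = 3 per group; 95% interval -0.65 to 0.18; limma adjusted p = 0.319). Without FOXK2 replicate 2 it was -0.43 and BCL2L1 was called lower (limma adjusted p = 0.0249). BCL2L1 transcripts have a mean GC content of 56.8%, in a bin where 36.7% of genes were called lower, and the corrected difference was 0.14 (limma adjusted p = 0.361).

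The splicing of BCL2L1, on chromosome 20, decides between BCL-xL, which protects cells, and BCL-xS, which lacks the groove that binds death proteins and promotes apoptosis. The 2 listed transcripts with the full coding sequence of 233 codons, BCL2L1-201 and BCL2L1-203, differ from the 170-codon xS transcript, BCL2L1-202, by 1 stretch of 189 coding bases, from coding base 377 to 565. It is shown (GENCODE 29 sequence, 5′ to 3′) because it is the whole difference between the protective and the opposing form, with the codons of the BH1 domain in capitals.
BCL2L1 coding bases absent from the xS form: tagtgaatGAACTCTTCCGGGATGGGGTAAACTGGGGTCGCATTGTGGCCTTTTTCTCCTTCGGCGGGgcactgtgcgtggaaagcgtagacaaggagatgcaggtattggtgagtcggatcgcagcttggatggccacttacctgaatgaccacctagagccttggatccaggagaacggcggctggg

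Transcripts that hold this stretch in a complete coding sequence summed to 81.8, 77.6 and 93.5 FPKM in the vector replicates and 60.9, 91.2 and 73.1 FPKM in the FOXK2 replicates. The xS transcript stood at 3.92, 6.14 and 5.20 FPKM in the vector replicates and 4.22, 8.63 and 4.34 FPKM in the FOXK2 replicates, again highest in FOXK2 replicate 2. As a share of the BCL2L1 sum, xS made up 2.32% to 3.34% in the vector libraries and 3.02% to 4.26% in the FOXK2 libraries, so the groups overlapped. The protective form was thus by far the larger in every library, and neither form's level separated the groups. The other 6 listed BCL2L1 transcripts are models whose coding sequence stops before a stop codon, and they carried 46.1% to 54.4% of the gene sum. One of them, BCL2L1-209, stood at 9.10, 11.7 and 9.71 FPKM in the vector replicates and 2.68, 3.49 and 2.44 FPKM in the FOXK2 replicates. It fell by 1.53 ± 0.18 (SE; limma adjusted p = 0.0141 over all transcripts), and its share of the sum went from a mean of 5.58% to one of 1.84%. The call was kept with the GC and length correction (-1.16, limma adjusted p = 0.0177) and was lost without vector replicate 2, vector replicate 3 or FOXK2 replicate 3, with a limma adjusted p of up to 0.0643. Because the model is a fragment that shares its exons with the complete forms, how reads were divided between them is not known.

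MCL1, a short-lived survival protein that holds BAK1 and BIM, rose. Its summed level was 36.5, 29.5 and 26.7 FPKM in the vector replicates and 48.8, 39.6 and 45.6 FPKM in the FOXK2 replicates. Every FOXK2 library lay above every vector library, the closest pair being FOXK2 replicate 2 and vector replicate 1. The group means were 30.9 ± 5.03 and 44.7 ± 4.63 FPKM (SD, n = 3 each), a difference of 0.52 ± 0.15 (SE; 95% interval 0.17 to 0.88; limma adjusted p = 0.0327). The call was lost without vector replicate 2 (limma adjusted p = 0.0955), vector replicate 3 (0.109), FOXK2 replicate 1 (0.0882) or FOXK2 replicate 3 (0.101 as the limma adjusted p), and kept without FOXK2 replicate 2 (0.61, limma adjusted p = 0.0207). With 45.6% GC, MCL1 lies in a bin where 25.5% of genes were called higher, and its corrected difference was 0.21 (limma adjusted p = 0.157).

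The MCL1 sum, on chromosome 1, was split between transcripts in a way that did not follow the groups. MCL1-202 codes for the full protein of 350 codons, and MCL1-204 for a 197-codon form without 459 coding bases, from base 111 to 569, in the region before the BH domains. The letters around the point where the 2 coding sequences part are shown because reads covering it are among those that can tell the forms apart. Shared bases are in lower case and the bases after the point in capitals.
MCL1-202 at the branch point: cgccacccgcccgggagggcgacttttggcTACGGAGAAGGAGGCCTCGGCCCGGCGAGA
MCL1-204 at the branch point: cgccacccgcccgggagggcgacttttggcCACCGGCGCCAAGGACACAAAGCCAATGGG

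MCL1-204 stood at 14.3, 0.272 and 0.214 FPKM in the vector replicates and 20.2, 14.6 and 0.229 FPKM in the FOXK2 replicates. It therefore took 36.8% to 41.3% of the sum in vector replicate 1 and FOXK2 replicates 1 and 2, and under 1 percent in the other 3 libraries, with both kinds of library in each group. MCL1-202 alone stood at 18.7, 27.8 and 23.6 FPKM in the vector replicates and 25.7, 21.2 and 41.3 FPKM in the FOXK2 replicates, and its difference of 0.28 ± 0.28 (SE) did not pass the test (limma adjusted p = 0.553). The sum of both forms was 33.0, 28.1 and 23.8 FPKM against 45.8, 35.8 and 41.5 FPKM, without overlap. The groups were thus separated in the sum, while those of MCL1-202 alone overlapped. The interval of the MCL1-202 difference, -0.4 to 0.96, includes the gene's difference of 0.52. A rise of the full-length transcript was therefore neither shown nor excluded. How reads were divided between MCL1-202 and MCL1-204 is not known. MCL1-201, the 271-codon form that skips an exon and is known to promote apoptosis, made up 4.84% to 10.8% of the sum, and its groups overlapped.

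**Figure D2:**
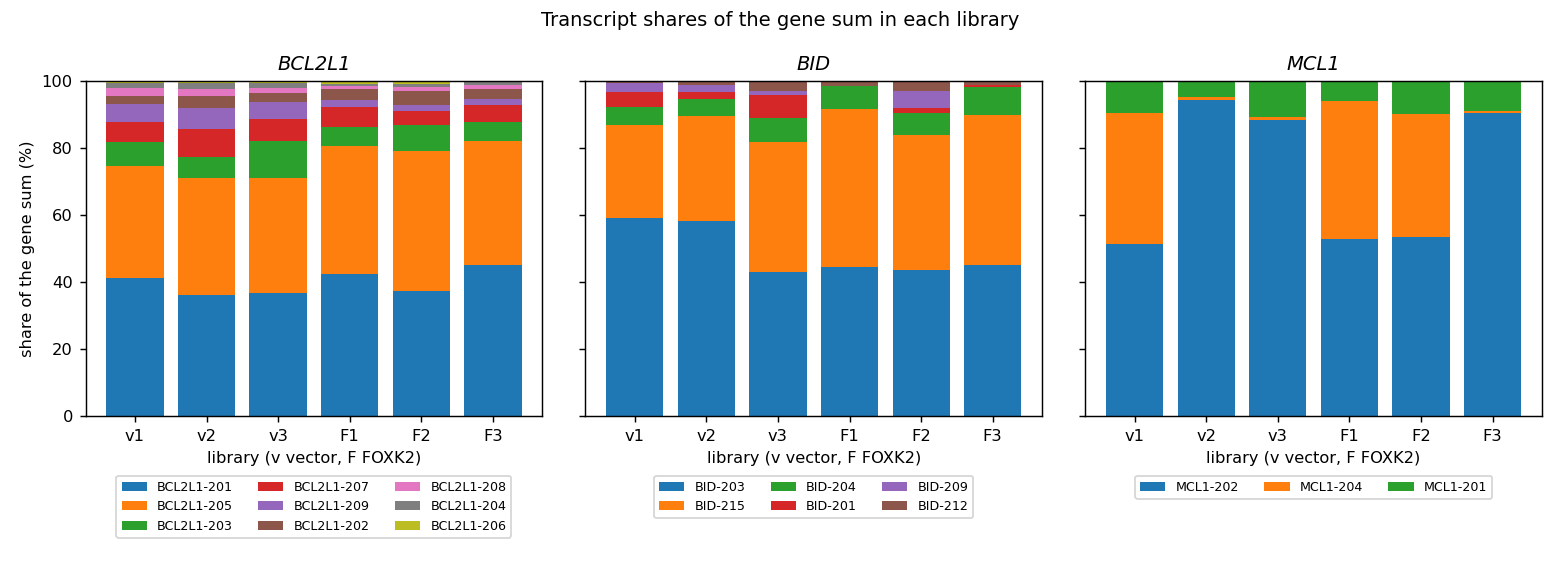
Share of the gene sum (percent) of each listed transcript of BCL2L1, BID and MCL1 in vector (v) and FOXK2 (F) libraries 1 to 3. MCL1-204 takes 36.8% to 41.3% in v1, F1 and F2 and under 1 percent in v2, v3 and F3, and BID-215 takes a larger share in all 3 FOXK2 libraries (40.3% to 47.2%) than in any vector library (27.9% to 39.1%).

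The effectors did not pass the test. BAX, the effector that moves from the cytosol to mitochondria, was at 21.3, 20.6 and 22.6 FPKM in the vector replicates and 10.9, 18.1 and 15.2 FPKM in the FOXK2 replicates. All FOXK2 values were below all vector values, with FOXK2 replicate 2 the nearest, and the difference was -0.54 ± 0.19 (SE; 95% interval -0.97 to -0.11; limma adjusted p = 0.0546). Without FOXK2 replicate 2 the difference was -0.70 and BAX was called lower (limma adjusted p = 0.0163). At 60.4% GC, BAX lies in a bin where 37.9% of genes were called lower, and the corrected difference was 0.14 (limma adjusted p = 0.283). Its leading transcript BAX-202, which codes for the 192-codon BAX alpha, carried 53.8% to 69.6% of the sum and was at 11.5, 12.9 and 15.7 FPKM in the vector replicates and 7.07, 9.88 and 8.49 FPKM in the FOXK2 replicates. The other 3 BAX transcripts, of 140 to 218 codons, overlapped between the groups.

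BAK1, the effector that resides on mitochondria, was at 16.9, 16.9 and 12.8 FPKM in the vector replicates and 9.96, 19.2 and 13.2 FPKM in the FOXK2 replicates. FOXK2 replicates 1 and 2 were the lowest and the highest of the 6 libraries, and the difference was -0.16 ± 0.24 (SE; 95% interval -0.71 to 0.38; limma adjusted p = 0.601). BAK1 has 58.8% GC. Its sign turned with the GC and length correction (0.24) and without FOXK2 replicate 1 (0.05). BAK1-202, with the 211-codon coding sequence, held 76.5% to 94.3% of the sum.

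BID, a BH3-only gene, fell. It links death receptors to mitochondria: caspase-8 cuts it, and the truncated protein activates BAX and BAK1. Its summed level was 37.7, 38.4 and 32.1 FPKM in the vector replicates and 16.6, 19.0 and 19.6 FPKM in the FOXK2 replicates. The groups were far apart, with means of 36.1 ± 3.43 and 18.4 ± 1.59 FPKM (SD, n = 3 each). The difference was -0.94 ± 0.13 (SE; 95% interval -1.25 to -0.63; limma adjusted p = 0.0028). BID transcripts hold 47.7% GC, in a bin where 9.51% of genes were called lower and 18.6% higher, and the corrected difference was -1.02 (limma adjusted p = 0.00151). With each library left out in turn, BID was called lower in all 6 fits, with a limma adjusted p of 0.00396 to 0.0161.

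BID, on chromosome 22, was listed with 6 transcripts of 3 coding lengths. BID-215 and BID-209 code for the 195-codon protein, while BID-203, BID-204 and BID-212 start at an internal methionine codon and code for the last 99 codons. The 288 coding bases that the short form lacks are shown because they hold 2 sites on which the known action of BID rests, in capitals: first the codons of the caspase-8 cleavage site, then those of the core of the BH3 domain up to the start of the short form.
BID coding bases absent from the short form: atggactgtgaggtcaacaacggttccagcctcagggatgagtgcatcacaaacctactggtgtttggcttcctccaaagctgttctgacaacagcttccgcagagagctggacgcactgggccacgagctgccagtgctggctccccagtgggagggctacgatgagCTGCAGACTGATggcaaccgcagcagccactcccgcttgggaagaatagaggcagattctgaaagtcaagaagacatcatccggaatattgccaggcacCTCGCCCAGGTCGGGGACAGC

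Transcripts with the 195-codon sequence summed to 11.6, 12.9 and 13.0 FPKM in the vector replicates and 7.82, 8.63 and 8.72 FPKM in the FOXK2 replicates. Those of the short form summed to 24.5, 24.7 and 16.9 FPKM in the vector replicates and 8.75, 10.1 and 10.7 FPKM in the FOXK2 replicates. Both were lower in every FOXK2 library. The share of the 195-codon transcripts in the sum was higher there, at 47.2%, 45.4% and 44.6% against 30.7%, 33.5% and 40.4%. The short form's share overlapped, at 52.79%, 53.08% and 54.85% in the FOXK2 replicates against 64.94%, 64.25% and 52.65% in the vector replicates. BID-201, of 241 codons, also holds the bases that the short form lacks, but it is not counted in the 195-codon share. It took 0%, 1.48% and 0.571% of the sum in the FOXK2 replicates against 4.39%, 2.24% and 6.98% in the vector replicates. These shares are given as descriptions and were not tested. Of single transcripts, BID-203, the main short one, fell by 1.13 ± 0.22 (SE; limma adjusted p = 0.0392), a call kept with the GC and length correction (-1.25, limma adjusted p = 0.0296). It was kept without vector replicate 3 (limma adjusted p = 0.0405) and lost without any other library, with a limma adjusted p of up to 0.121. BID-215, the main full-length one, had a difference of -0.49 ± 0.14 (SE) and did not pass the test (limma adjusted p = 0.0964). BID-201, with the longest coding sequence of 241 codons, was at 1.66, 0.859 and 2.24 FPKM in the vector replicates while FOXK2 replicate 1 had it at a listed 0 and FOXK2 replicates 2 and 3 at 0.281 and 0.112 FPKM, under the filter.

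BIK, a BH3-only protein of the endoplasmic reticulum, had the largest difference among the members tested as deposited, while BID had the largest with the GC and length correction. Its 1 listed transcript, BIK-201, on chromosome 22, was at 4.00, 3.81 and 4.16 FPKM in the vector replicates and 0.599, 1.17 and 1.17 FPKM in the FOXK2 replicates. The lowest vector library lay well above the highest FOXK2 library, and the group means were 3.99 ± 0.17 and 0.98 ± 0.33 FPKM (SD, n = 3 each). The difference was -1.35 ± 0.17 (SE; 95% interval -1.75 to -0.94; limma adjusted p = 0.00191). BIK has 56.0% GC, in a bin where 36.7% of genes were called lower, and its corrected difference was -0.84 (limma adjusted p = 0.00383). As a gene it was called lower in all 6 fits with a library left out, with a limma adjusted p of 0.00304 to 0.0103.

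BAD, which displaces BCL-xL's partners unless it is phosphorylated and held by 14-3-3 proteins, was the most abundant BH3-only member. Its summed level was 112, 100.1 and 116 FPKM in the vector replicates and 53.2, 89.6 and 63.8 FPKM in the FOXK2 replicates. The groups did not overlap, but FOXK2 replicate 2 lay nearer to the vector libraries than to the other FOXK2 libraries. The means were 109 ± 8.15 and 68.9 ± 18.7 FPKM (SD, n = 3 each), a difference of -0.69 ± 0.19 (SE; 95% interval -1.13 to -0.25; limma adjusted p = 0.027). The call was kept without FOXK2 replicate 2 (-0.89, limma adjusted p = 0.00379) and lost without any 1 of the other 5 libraries, with a limma adjusted p of 0.0532 to 0.0851. BAD transcripts have 65.7% GC, in the bin where 44.1% of genes were called lower, and with the correction the difference was 0.06 (limma adjusted p = 0.596), so that its direction was not kept. BAD-201 and BAD-203, which share the 168-codon sequence, made up 94.8% to 98.6% of the sum.

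PMAIP1 encodes NOXA, which binds MCL1 and marks it for degradation. Its level was 46.2, 29.3 and 24.0 FPKM in the vector replicates and 32.0, 22.2 and 29.4 FPKM in the FOXK2 replicates. The groups overlapped, with vector replicate 1 the highest, and the difference was -0.21 ± 0.25 (SE; 95% interval -0.78 to 0.37; limma adjusted p = 0.534). With the lowest GC content of the members, 37.6%, PMAIP1 lies in the bin where 35.1% of genes were called higher, and its corrected difference was -0.55 (limma adjusted p = 0.057). Without vector replicate 1 the uncorrected difference was 0.05.

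BBC3 and BCL2L11 were near the lower limit of the table. BBC3 encodes PUMA, an activator of apoptosis induced by DNA damage, and its 1 listed transcript was at 1.12, 0.172 and 0.405 FPKM in the vector replicates. It was listed at 0 in FOXK2 replicates 1 and 2 and at 0.0709 FPKM in FOXK2 replicate 3. The table holds only transcripts with a mean of about 0.5 FPKM or more in at least 1 group, so BBC3 was listed through its vector values alone, and it had no test. BCL2L11 encodes BIM, which binds all the survival proteins, and was at 0.155, 1.49 and 0.712 FPKM in the vector replicates and 0.954, 0.965 and 1.77 FPKM in the FOXK2 replicates. The groups overlapped, and the difference was 0.37 ± 0.29 (SE; 95% interval -0.31 to 1.05; limma adjusted p = 0.343). BCL2L11 has 45.4% GC and a corrected difference of 0.01 (limma adjusted p = 0.976), and BBC3, with 69.7%, is the richest in GC of the members.

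**Figure D3:**
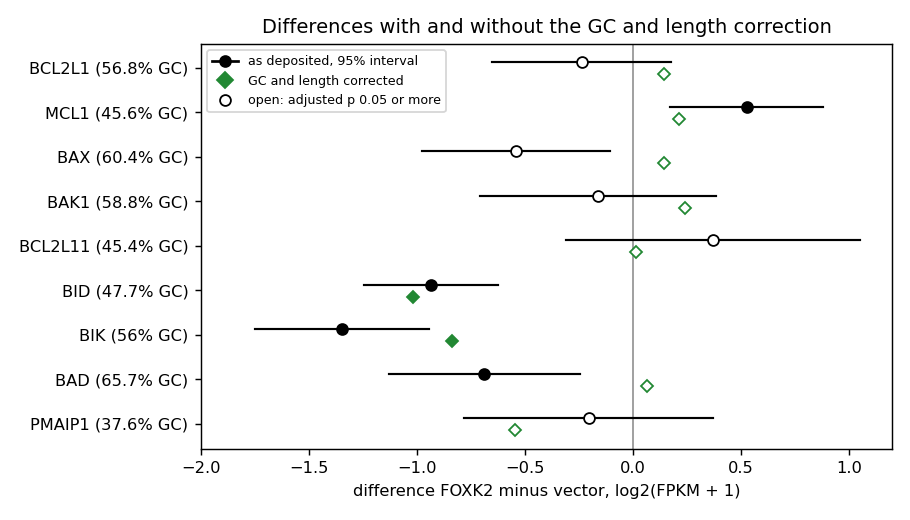
Difference FOXK2 minus vector on the log2(FPKM + 1) scale for the 9 tested members, with the 95% interval (circles) and after the GC and length correction (diamonds); filled symbols passed the adjusted p threshold. BID and BIK are filled in both forms, while MCL1 (0.52 to 0.21) and BAD (-0.69 to 0.06) are filled only as deposited.

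Promoters were read for the members because FOXK2 is a DNA-binding protein, and forkhead proteins bind variants of GTAAACA. RefSeq windows of GRCh38.p14, from 250 bases before to 50 bases after each start, were on hand for 8 of the 10 members, 14 windows in all. None was on hand for MCL1 or BIK, so the promoters of these called members were not searched. The letters GTAAACA, searched on both strands (the other strand reads TGTTTAC), occurred in 1 of the 14, that of BCL2L11, and in 3.42% of all 35093 windows. The BCL2L11 window, chr2:111120664-111120963 on the plus strand, is shown with the match in capitals, whose first base lies 223 bases before the start.
BCL2L11 promoter window: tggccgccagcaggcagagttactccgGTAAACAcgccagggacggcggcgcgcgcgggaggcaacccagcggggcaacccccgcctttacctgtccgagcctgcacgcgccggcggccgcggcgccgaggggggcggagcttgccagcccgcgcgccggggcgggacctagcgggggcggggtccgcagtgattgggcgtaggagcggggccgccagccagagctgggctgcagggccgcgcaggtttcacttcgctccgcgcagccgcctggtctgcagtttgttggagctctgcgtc
A match of letters is a description and not a binding site, and BCL2L11 is not one of the called members. No match in the windows of BID or BAD says only that these letters do not occur there.

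**Figure D4:**
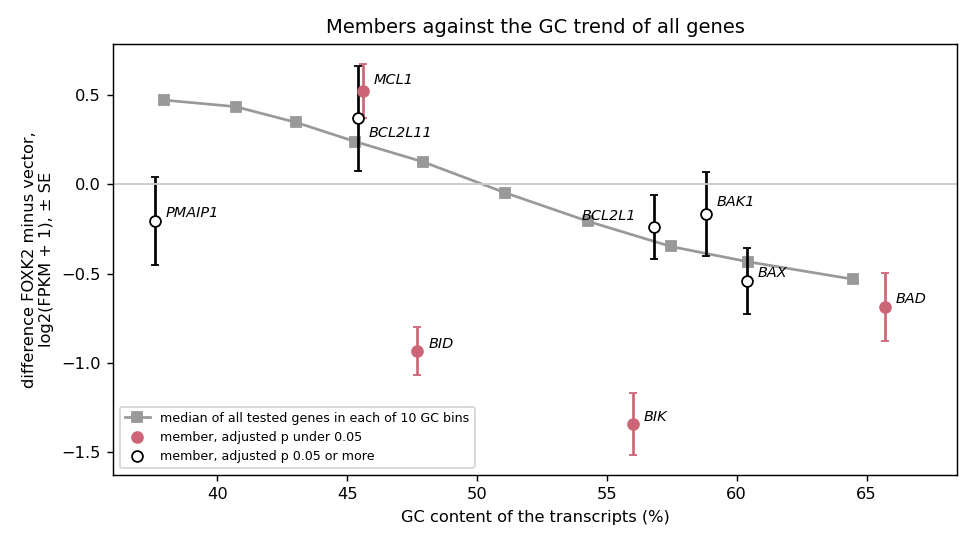
Difference FOXK2 minus vector (log2(FPKM + 1), ± SE) of each tested member against the GC content of its transcripts (percent), with the median difference of all tested genes in 10 GC bins as a grey line. BID and BIK lie far below the line, PMAIP1 also lies below it, and BAX and BAD lie near it.

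Of the 34 member transcripts, 29 were tested. Of these, 3 were called, all lower (BCL2L1-209, BID-203 and BIK-201), where the share of 7.39% of all 21342 transcripts would give 2.14. At an unadjusted limma p under 0.05, 0 were higher. Lower calls made up 4.36% and higher calls 3.03% of all transcripts. The groups of 12 of the 29 were separated with all FOXK2 values below all vector values, beside 18.5% of all transcripts, and those of 0 with all above, beside 16.7%. By sign alone, 24 of the 29 differences were below 0 and 5 above, beside 50.7% below 0 over all transcripts. With the GC and length correction 18 were below 0 and 11 above, beside 49.9% of all. The 12 separated transcripts belong to BCL2L1, BAX, BID, BIK and BAD only. Those of BCL2L1 are models with an incomplete coding sequence, and the BCL2L1 sum overlapped between the groups. Transcripts of 1 gene share exons, so these counts are not of independent features and are descriptions. The number called was 3 without FOXK2 replicate 2 (BID-203 not among them), 1 without vector replicate 1, vector replicate 3 or FOXK2 replicate 1, and 0 without vector replicate 2 or FOXK2 replicate 3. BIK-201 kept its call without FOXK2 replicate 2 (limma adjusted p = 0.0319) and lost it without any other library, with a limma adjusted p of up to 0.0868.

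Levels of survival and death genes were also set against each other within each library, as descriptions with no test. BCL2L1 plus MCL1 over the sum of the BH3-only members was 1.02, 1.23 and 1.26 in the vector replicates and 1.70, 1.82 and 1.63 in the FOXK2 replicates. BCL2L1 plus MCL1 over BAX plus BAK1 was 5.37, 5.68 and 6.30 against 8.42, 6.50 and 6.66. Both ratios were higher in every FOXK2 library, and the second separated the groups by less than the spread among the FOXK2 libraries. For known binding pairs, MCL1 over PMAIP1 was 0.789, 1.01 and 1.11 against 1.52, 1.79 and 1.55, and BCL2L1 over BAD was 1.51, 1.83 and 1.69 against 2.38, 2.26 and 2.25. BAD, at 65.7% GC, weighs heavily in the first ratio and is the lower term of BCL2L1 over BAD. Its difference was not kept with the GC and length correction. With that correction MCL1 (0.21) and PMAIP1 (-0.55) were not called, and BAX (0.14) and BAK1 (0.24) turned positive without a call. All these ratios are of values as deposited, and the part of GC content in them was not tested. BCL2L1 and BAD together took 60.0% to 71.6% of the summed FPKM of the members.

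For each called member, the 3 tested genes outside the pathway lists with the most similar pattern were found by the root mean square difference of centred log2(FPKM + 1) values over the 6 libraries. MCL1 was nearest to RAB14 and SNAPC1, at 0.04 each on that scale. BID was nearest to LRP1, SERF2 and DGKQ, at 0.06 each. BIK was nearest to FES, LRMDA and CERCAM, at 0.04 to 0.06, and BAD to CIB1, STUB1 and GDPD5, at 0.02 to 0.04. The neighbours of BIK hold 58.0% to 63.0% GC and those of BAD 57.9% to 63.8%, so both stand among GC-rich genes, whereas BID at 47.7% was nearest to genes of 57.2% to 66.0%.

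Beyond the 10 members, 103 genes of the apoptosis pathway were taken in 7 lists, of which 91 were tested. Of these, 14 were called higher and 11 lower, where the share of all genes would give 33.0 calls, and the median difference was 0.00 against 0.01 over all genes. With the GC and length correction 9 were called higher and 15 lower, and 15 of the 25 calls were kept in the same direction. Calls in all 6 fits with a library left out were kept by 11 of the 25, and the number called fell to 14, 12 and 14 without vector replicate 2, vector replicate 3 and FOXK2 replicate 3.

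Among 14 other BCL2 family genes, 9 were listed and tested, and 2 rose and 2 fell, beside 17.6% and 18.7% of all genes. BCL2 itself, the founding survival gene, was low, at 0.761, 0.674 and 0.879 FPKM in the vector replicates and 1.57, 2.29 and 1.31 FPKM in the FOXK2 replicates. It rose by 0.61 ± 0.18 (SE; limma adjusted p = 0.0328), and the correction took the difference to 0.42 (limma adjusted p = 0.152). BCL2L12 rose by 0.58 (limma adjusted p = 0.0333), and with the correction by 1.13. BCL2L10, a survival homologue, fell by 1.19 (limma adjusted p = 0.00207), a call kept with the correction. Its levels were 2.13, 2.20 and 1.95 FPKM in the vector replicates and 0.339, 0.539 and 0.208 FPKM in the FOXK2 replicates. Like BBC3, BCL2L10 was thus listed through its vector values alone, and its call is given only as a description. BOK, an effector homologue, fell by 0.76 (limma adjusted p = 0.0212), a call lost with the correction. BCL2L10 was called in all 6 fits with a library left out, and BCL2, BCL2L12 and BOK were not.

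Downstream of the mitochondrion, 14 genes of the apoptosome, the caspases and the released death factors were tested. Of these, 2 rose and 1 fell, beside 17.6% and 18.7% of all genes. CYCS, which encodes the cytochrome c released through BAX and BAK1 pores, rose by 0.50 (limma adjusted p = 0.0265). It is poor in GC, at 41.6%, and was not called with the correction. ENDOG, a mitochondrial nuclease, fell by 1.16 (limma adjusted p = 0.00739) and was called lower with the correction too. Of 6 tested inhibitors of apoptosis, 1 rose and 2 fell, beside the same shares of all genes. BIRC5 (survivin), also a mitotic protein, was at 23.1, 22.9 and 24.3 FPKM in the vector replicates and 38.7, 49.7 and 42.7 FPKM in the FOXK2 replicates, and rose by 0.86 (limma adjusted p = 0.00346). BIRC3 fell by 1.42 (limma adjusted p = 0.00188), and CFLAR, which blocks caspase-8 upstream of BID, fell by 0.86 (limma adjusted p = 0.0223). BIRC5, BIRC3 and CFLAR kept their calls with the correction, and BIRC5 and BIRC3 kept them in all 6 fits with a library left out. BIRC3 was at 3.4, 2.9 and 2.3 FPKM in the vector replicates and 0.689, 0.339 and 0.312 FPKM in the FOXK2 replicates. It was thus listed through its vector values alone, and its call is given only as a description.

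Of 13 mitochondrial partners, 3 rose and 1 fell, beside 17.6% and 18.7% of all genes. OPA1, an inner membrane protein that keeps cristae closed, rose by 1.23 (limma adjusted p = 0.0137), DNM1L, the fission motor, by 0.67 (limma adjusted p = 0.0389) and VDAC3, an outer membrane channel, by 0.34 (limma adjusted p = 0.0391). FIS1, a fission receptor, was at 205, 195 and 205 FPKM in the vector replicates and 62.4, 113 and 84.3 FPKM in the FOXK2 replicates, and fell by 1.25 (limma adjusted p = 0.00421). OPA1, VDAC3 and FIS1 kept their calls with the correction and DNM1L did not. With each library left out in turn, OPA1 and FIS1 were called in all 6 fits, and VDAC3 and DNM1L in 1 each.

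Of 20 genes for turnover and phosphorylation of the family, 5 rose and 1 fell, beside 17.6% and 18.7% of all genes. The list holds 7 genes of 14-3-3 proteins, which hold phosphorylated BAD in the cytosol. They were not planned as a list of their own, so their count is only a description. Of the 7, 5 rose: YWHAE by 0.51, YWHAG by 0.36, YWHAH by 0.41, YWHAQ by 0.57 and SFN by 0.71. Their limma adjusted p-values were 0.0159, 0.0485, 0.0313, 0.0082 and 0.0129. YWHAB (0.35) and YWHAZ (0.24) did not pass the test (limma adjusted p = 0.101 and 0.24). With each library left out in turn, YWHAQ and SFN were called in all 6 fits, YWHAE in all but that without vector replicate 3, and YWHAG and YWHAH in 2, losing the call without vector replicate 2, vector replicate 3, FOXK2 replicate 1 or FOXK2 replicate 3. SFN, at 62.8% GC, went against the GC trend and stood at 1.35 with the correction, where YWHAH, YWHAQ and SFN kept their calls and YWHAE and YWHAG did not. PIM3, a kinase known to phosphorylate BAD, fell by 0.80 (limma adjusted p = 0.00972) and was not called with the correction. HUWE1, FBXW7, USP9X and MARCH5, which add or remove ubiquitin on MCL1, had differences of -0.10, 0.37, 0.48 and 0.25 that did not pass the test.

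Of 12 tested transcription factors of these genes, 0 rose (also 0 at an unadjusted limma p under 0.05) and 2 fell. Of all genes, 17.6% were called higher and 18.7% lower. FOXO4, a forkhead factor, was at 2.43, 2.35 and 2.29 FPKM in the vector replicates and 1.23, 1.13 and 1.40 FPKM in the FOXK2 replicates, and fell by 0.58 (limma adjusted p = 0.0187), a call lost with the correction. FOXO1 and FOXO3, forkhead factors that can induce BCL2L11, had differences of 0.47 and 0.32 that did not pass the test.

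**Figure D5:**
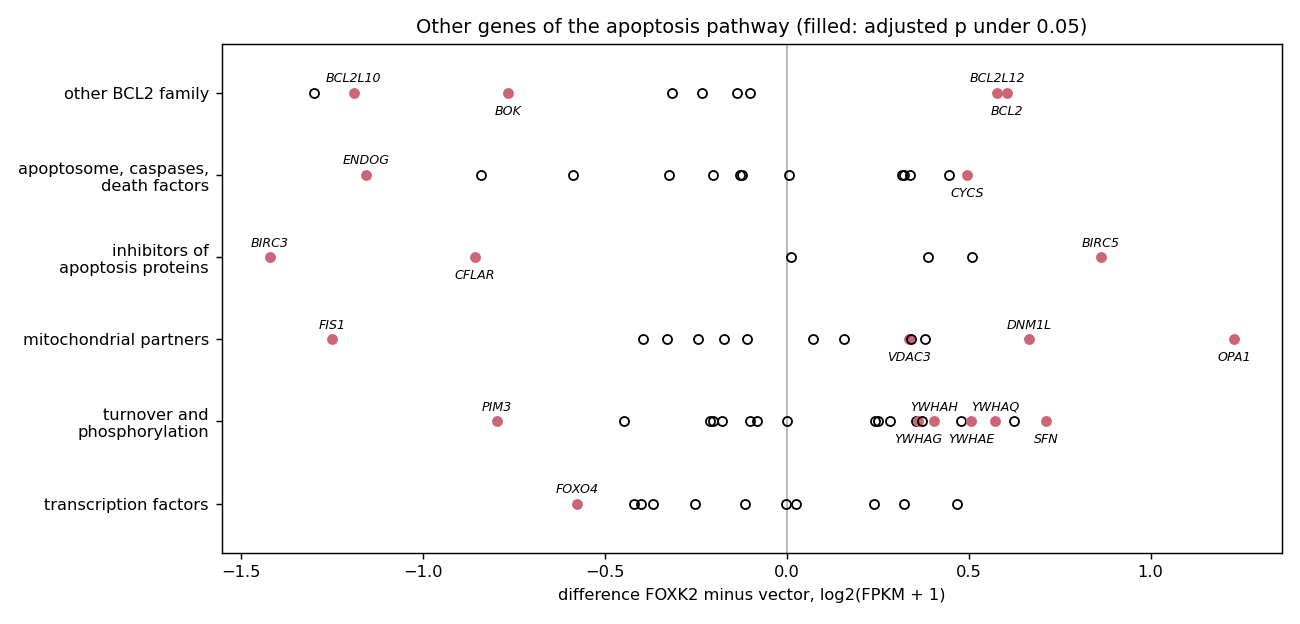
Difference FOXK2 minus vector (log2(FPKM + 1)) of 72 other tested pathway genes in 6 lists, with filled and named symbols for the 20 past the adjusted p threshold; genes not reported here are not drawn, so the lists' counts in the text can be larger. The 5 filled symbols on the right of the turnover and phosphorylation list are 5 of its 7 14-3-3 genes, and differences in most lists fall on both sides of 0.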

How the data were processed

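Total RNA of 6 CAL-62 cultures was sequenced from libraries made with a stranded kit, per the labels' protocols. Per the submitters' processing notes, cutadapt, HISAT2 2.1.0 and StringTie were used with build hg19. Their roles, their settings and any use of the strand are not given in the sources. The values deposited by the authors carry no unit in the header and were taken as FPKM because StringTie is named. Whole multiples of a common step (tolerance 0.02) made up 5.0% of 200 low values, so depth is unknown and no counting interval is given. Summed FPKM per library was 335151 to 395782.

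GENCODE 29, on another build, was used for names, coding sequences, GC content and length: 30893 transcripts matched and 116 did not. Gene sums of log2(FPKM + 1) with a mean of at least 1 FPKM were tested with limma 3.58.1 in R 4.3.3 (1 term for the group, intensity trend, two-sided, Benjamini-Hochberg). The GC and length correction removed each library's spline trend (4 degrees of freedom). How the replicate cultures were separated is not stated, and p-values measure only the spread among them, which may be technical. The members and lists were chosen with earlier results of these data known. Genes named are all members, up to 6 called genes of smallest p per pathway list, FOXK2 and the 3 genes nearest to each called member. BCL2L2 in the closing section, the unpassed genes named in the pathway lists and the marker genes were named after their values were seen. Some genes that this rule takes, and 1 of the 7 lists, are counted in the totals but not reported here. Alternatives were other pseudocounts (0.1 and 0.5), filters and scalings, no trend, array weights, a replicate block, libraries left out, the most abundant transcript, and a fold minimum. Scripts were tested on simulated data.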

Additional observations from a re-analysis of the deposited data

How the results depend on the processing

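The directions and calls of BID and BIK were kept under every alternative fit that gave them a value, and BID missed the calls only where a log2 fold change of at least 1 was also asked for. Counts that moved are given in the order all genes (3741), members (4), member transcripts (3) and pathway genes (25). Limma array weights gave 7116 genes, 8 member transcripts and 60 pathway genes. Using each gene's most abundant transcript alone gave 2143 genes and 2 members. That fold rule left 1040 genes and 1 member, BIK. The GC and length correction left 2 members, and turned the differences of BCL2L1 (0.14), BAX (0.14), BAK1 (0.24) and BAD (0.065). With each library left out in turn, the counts ran from 1950 to 4778 genes, 2 to 6 members, 0 to 3 member transcripts and 12 to 33 pathway genes, all 4 highest without FOXK2 replicate 2. The difference of BAK1 ran from -0.39 to 0.045 (the latter without FOXK2 replicate 1) and that of PMAIP1 from -0.40 to 0.054 (the latter without vector replicate 1).

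Deviations of same-numbered libraries correlated at 0.13, -0.17 and -0.06, and not every library correlated best with its own number, so the numbers were not taken to pair the samples. With the replicate block, 2982 genes, 4 members, 19 pathway genes and 0 member transcripts were called (10 transcripts at an unadjusted limma p under 0.05). With the block and the GC and length correction, 2124 genes, 2 members, 16 pathway genes and 0 member transcripts were called (6 at an unadjusted limma p under 0.05), and BCL2L1 (0.14), BAX (0.14), BAK1 (0.24) and BAD (0.065) were again above 0. Equal library sums moved the median of all genes to 0.13 and split the calls into 2188 higher and 1506 lower, against 1812 and 1929, with 1 member higher and 3 lower as before. Without transcripts under a mean of 1 FPKM, BID-203 took 46.5% of the BID sum in the FOXK2 libraries (44.4% with all) and BAD-201 84.9% of the BAD sum in the vector libraries (84.3% with all). The causes of these shifts were not tested. Depth is unknown, and levels near or under 1 FPKM (BCL2L11, BBC3, and BIK, BCL2L10 and BIRC3 in the FOXK2 libraries) are the least certain.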

Other observations

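BCL2L2, which encodes the survival protein BCL-w, was listed at 11.0, 10.2 and 10.0 FPKM in vector replicates 1 to 3 and at 11.3, 2.67 and 1.19 FPKM in the FOXK2 replicates. It shares exons with an annotated readthrough gene, so its level is uncertain. FOXK2 replicate 1 thus lay at the vector level and the other 2 FOXK2 libraries well below it, and the difference of -1.30 ± 0.55 (SE) did not pass the test (limma adjusted p = 0.097). Without FOXK2 replicate 1 it was -2.005 and was called (limma adjusted p = 0.00423), and without FOXK2 replicate 3 it was -0.76 (limma adjusted p = 0.25). CASP9, the initiator caspase of the apoptosome, was listed at 0 in FOXK2 replicate 1 and between 0.529 and 2.27 FPKM in the other 5 libraries.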
